A study of Bos taurus with 10 samples.

Results

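The genes of MHC class I and class II antigen presentation were followed in bacteria-free mammary glands of cows in which another gland of the udder was infected. The members follow a rule on gene symbols that uses no measured value, although the list was drawn up with earlier results of these data known. They are all probe sets (groups of short array probes for one transcript) whose only gene symbol begins with BOLA, the bovine MHC, or is one of the listed genes of peptide generation, transport, loading and class II assembly. The BOLA1, BOLA2 and BOLA3 symbols, which belong to an unrelated protein family, were left out. This gave 31 genes with 44 probe sets, out of 9155 gene symbols and 24016 probe sets in all. Of the 35 listed names 26 had such a probe set and 9 had none, and 5 further BOLA symbols came in through the rule. The 9 were BOLA-DOB, BOLA-NC1, JSP.1, NLRC5, CD74, CIITA, RFXAP, CD1D and CD1E, which are not analysed here.

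MHC class I molecules carry peptides from inside the cell to its surface, where cytotoxic T cells read them. The peptides are cut by the proteasome, of which interferon can install a special form, the immunoproteasome. The TAP1/TAP2 pump moves them into the endoplasmic reticulum, where they are loaded onto a heavy chain paired with beta-2-microglobulin. MHC class II molecules carry peptides from material taken up from outside and show them to helper T cells. They are made mainly by macrophages, dendritic cells and B cells, and some epithelia make them under interferon gamma. MHC chains are among the most variable genes between individuals.

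The series holds 10 arrays, 1 per cow, from healthy mid-lactation German Holstein Frisian cows in their first lactation. The neighboring group had 5 cows, in which another gland of the udder received E. coli 1303, isolated from mastitis, at a dose of 500 CFU in 2 ml. The control group had 5 healthy cows without inoculation. Tissue was taken 24 h after inoculation, and both groups were oestrus-synchronised with Cloprostenol and milked out with Oxytocin. By the study's methods, neighboring 1, 2, 3 and 5 were pools of a saline-treated and an untreated gland, so saline is part of that group, and neighboring 4 came from an untreated gland alone. Values are RMA values, which are log2 intensities, so that a difference of 1 is a doubling. The comparison, neighboring minus control, asks whether antigen presentation genes differ in tissue away from the infection. It was fitted with limma on 8 arrays, 4 per group, because the study's methods set neighboring 5 aside as a biological outlier and control 3 as a technical one. The fit of all 10 arrays is given beside each called member. The p-values measure the spread between these cows.

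Tissue identity and array quality were as follows. The milk protein transcripts CSN2, LALBA and CSN1S1 averaged 13.53 to 14.77 in the neighboring group and 13.62 to 14.68 in controls. The hybridization controls, spiked-in transcripts, read 9.40 to 9.67 on the neighboring arrays of the fit and 9.68 to 10.14 on its controls, without overlap. Whether this technical difference or the condition underlies a change cannot be told apart where the call is lost with these controls as a covariate. With that covariate 1.33% of all probe sets passed, and 0 of the 35 tested members did. Array values have no true zero, and precision is limited by how many arrays there are.

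Of the 44 member probe sets 35, for 26 genes, lay above the intensity filter and were tested. In the fit of 8 arrays 6 passed at an adjusted p under 0.05. A class I heavy chain probe set and both TAP transporter genes were higher in neighboring glands. BOLA-DRA, a BOLA-DRB3 probe set and the Fc receptor FCGRT were lower. These 6 are 17.1% of the members tested, while 29.7% of all 14409 probe sets passed the same fit. By direction, 3 members were higher and 3 lower, against 17.7% of all probe sets higher and 12.0% lower. The members' share thus lies under that of the array, and the difference between these shares was not tested. With all 10 arrays in the fit 3 members passed (BOLA A, BOLA-DRB3 B and FCGRT), where 12.5% of all probe sets did, 7.16% higher and 5.37% lower. Under the threshold of the study's methods, over 2-fold with adjusted p under 0.01, 0 members passed and 2.76% of all probe sets did. Groups did not overlap in 5 of the 35 members on the 8 arrays and in 31.7% of all probe sets.

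**Figure D1:**
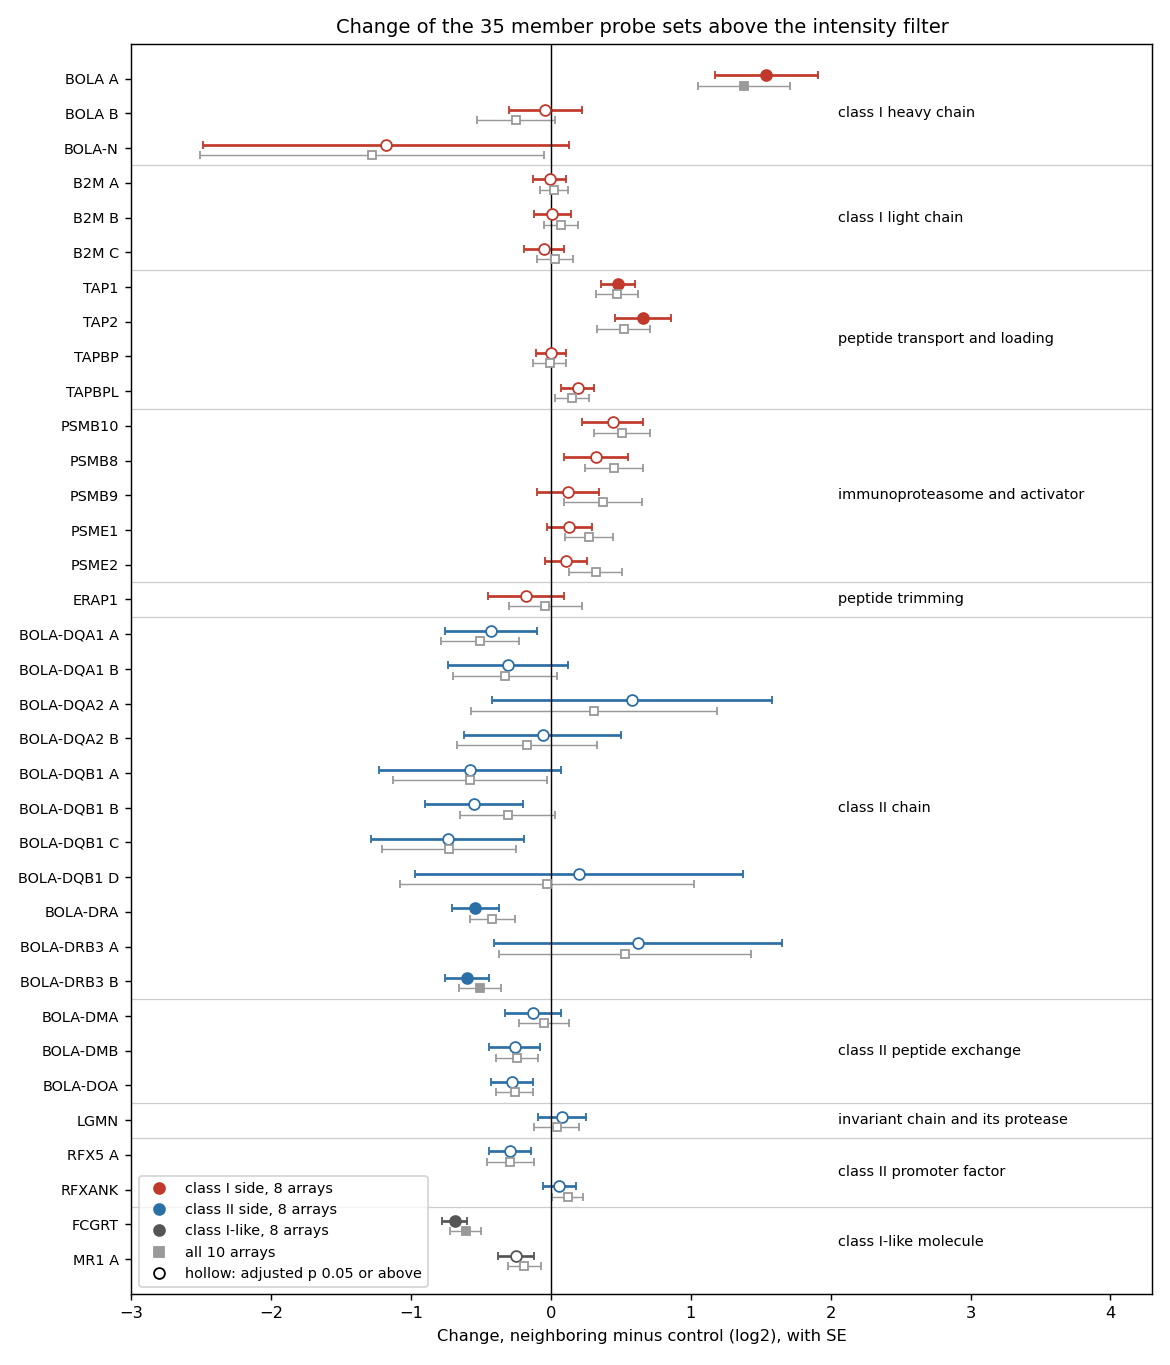
Change of each member probe set above the intensity filter, neighboring minus control on the log2 scale, with its standard error; circles are the fit of 8 arrays and gray squares that of all 10, filled where the adjusted p was under 0.05. Class I side changes range from -1.18 to 1.54 and class II side changes from -0.74 to 0.62, and 6 circles and 3 squares are filled.

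The class I side (heavy chains, beta-2-microglobulin, transport, immunoproteasome and trimming) had 16 probe sets tested, of which 3 (18.8%) were higher, 0 lower and 13 did not pass, where 17.7% of all probe sets were higher. Their median change was 0.11, with 11 above and 5 below zero, and it was 0.20 without neighboring 1, 0.03 without neighboring 3 and 0.07 without neighboring 4. The class II side (chains, peptide exchange, processing and promoter factors) had 17 tested, of which 0 were higher, 2 (11.8%) lower and 15 did not pass, where 12.0% of all probe sets were lower. Neither count stands apart from the array. Their median change was -0.28, with 5 above and 12 below zero. The median over all probe sets tested was 0.03. Over all 10 arrays the medians were 0.21 for the class I side and -0.26 for the class II side, where the array had 0.02.

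The distance between the sides can also be read within each array, as the median deviation of its class I side probe sets from their control mean, minus the same for class II. The 5 neighboring arrays gave 0.35, 0.38, 0.46, 0.29 and 0.27 (neighboring 1 to 5). The 5 control arrays gave -0.36, 0.00, -0.58, -0.10 and 0.25. Every neighboring array lay above every control, although neighboring 5 and control 5 differed by little. Neighboring 1 stood lowest on both sides, at -0.35 for class I and -0.70 for class II, and its distance between them lay within the range of the other neighboring arrays. Being a summary over chosen members, this difference has no test.

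Among class I heavy chains, 1 of the 2 probe sets of the symbol BOLA (BOLA A) was higher. Probe sets of one gene are lettered here in the order of their array identifiers. It read 9.18, 9.28, 8.69, 8.42 and 8.67 in neighboring 1 to 5, and 8.22, 7.94, 7.94, 6.84 and 6.41 in control 1 to 5. All 5 neighboring arrays lay above all 5 controls. The means were 8.89 ± 0.40 and 7.35 ± 0.86 (SD, n = 4 each), a 2.91-fold difference (log2 change 1.54 ± 0.37 SE, adjusted p = 0.0121). On all 10 arrays the change was 1.38 ± 0.33 (adjusted p = 0.0291).

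The other heavy chain probe sets among the members did not follow it. The second probe set (BOLA B) read 11.42 to 13.09 in the neighboring group and 12.20 to 12.81 in controls, with a change of -0.04 ± 0.26. BOLA-N ran over 6.70 log2 units between arrays. It read 8.46, 6.59, 13.29, 9.57 and 6.94 in neighboring 1 to 5, and 8.91, 13.04, 8.60, 9.08 and 11.61 in control 1 to 5. Its highest values, in neighboring 3 and control 2, fell in different groups, and its change of -1.18 ± 1.31 did not pass (adjusted p = 0.513). The 2 BOLA probe sets thus disagree, and class I loci are near-identical copies that share probes, so the locus behind the higher one is uncertain.

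A further 20 probe sets were annotated to several class I loci at once and name no single gene, so they are no members. Of these 16 lay above the filter, and 4 were higher, 1 lower, in the fit of 8 arrays. This is 31.2% called, where 29.7% of all probe sets were. The count includes 2 probe sets that passed the filter through the neighboring group alone, so the shares are not compared. In the fit of all 10 arrays F was higher and 0 were lower, where D, among those 2, is not counted. In 2 of the 4 higher ones, lettered Q and D, the control mean lay under the filter cutoff of 5.71, so that they passed the filter through the neighboring group alone, and their values are given without a test. In Q the neighboring arrays lay between 8.06 and 9.66, while control 1 to 5 read 2.50, 2.50, 7.71, 8.86 and 5.40. Control 4 stood within the neighboring range, so that groups overlapped. In D the values were 7.22 to 7.89 in the neighboring arrays of the fit, 6.78 in neighboring 5, and 3.70 to 6.40 in controls, without overlap on the 10 arrays. In probe set F all 5 neighboring arrays (7.66 to 8.38) lay above all 5 controls (5.46 to 7.50), as in BOLA A. By limma its change was 1.49 ± 0.36 (adjusted p = 0.0129), and 1.31 ± 0.33 on all 10 arrays (0.0319). Probe set R was also higher (0.93 ± 0.30, 0.0394, and 0.054 on all 10 arrays). Probe set I was lower (-0.49 ± 0.16, 0.0446, and 0.0946 on all 10 arrays). The 4 brightest of the several-loci probe sets, averaging above 11, changed by 0.20 to 0.59 and none passed (lowest adjusted p = 0.169).

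Beta-2-microglobulin (B2M), the light chain of every class I molecule, did not differ in any of its 3 probe sets. Its changes were -0.01 ± 0.12, 0.01 ± 0.13 and -0.05 ± 0.14, with adjusted p from 0.802 to 0.973. These probe sets read 12.08 to 13.35 over the 10 arrays. In all 3 the lowest neighboring array was neighboring 1 and the lowest control was control 3.

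Both subunits of the peptide pump were higher. TAP1 read 8.24, 8.68, 8.37, 8.37 and 7.95 in neighboring 1 to 5, and 7.80, 7.86, 7.52, 8.15 and 7.95 in control 1 to 5. The 4 neighboring arrays of the fit lay above every control, and neighboring 5 fell among the controls. The change was 0.48 ± 0.12, or 1.39-fold (adjusted p = 0.0148), and 0.47 ± 0.15 on all 10 arrays (adjusted p = 0.0536).

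TAP2 read 9.56, 10.00, 10.37, 9.62 and 9.34 in neighboring 1 to 5, and 9.49, 9.35, 9.36, 9.32 and 8.78 in control 1 to 5. Neighboring 5 again fell among the controls, and control 5 stood below the rest. The change was 0.66 ± 0.20, or 1.58-fold (adjusted p = 0.0331), and 0.52 ± 0.19 on all 10 arrays (adjusted p = 0.0894). The TAP2 call was lost on leaving out any one of neighboring 2, neighboring 3, control 2, control 4 or control 5. Tapasin (TAPBP), which bridges the pump and the heavy chain, changed by 0.00 ± 0.11. Its relative TAPBPL, a peptide editor, changed by 0.19 ± 0.12 (adjusted p = 0.272).

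**Figure D2:**
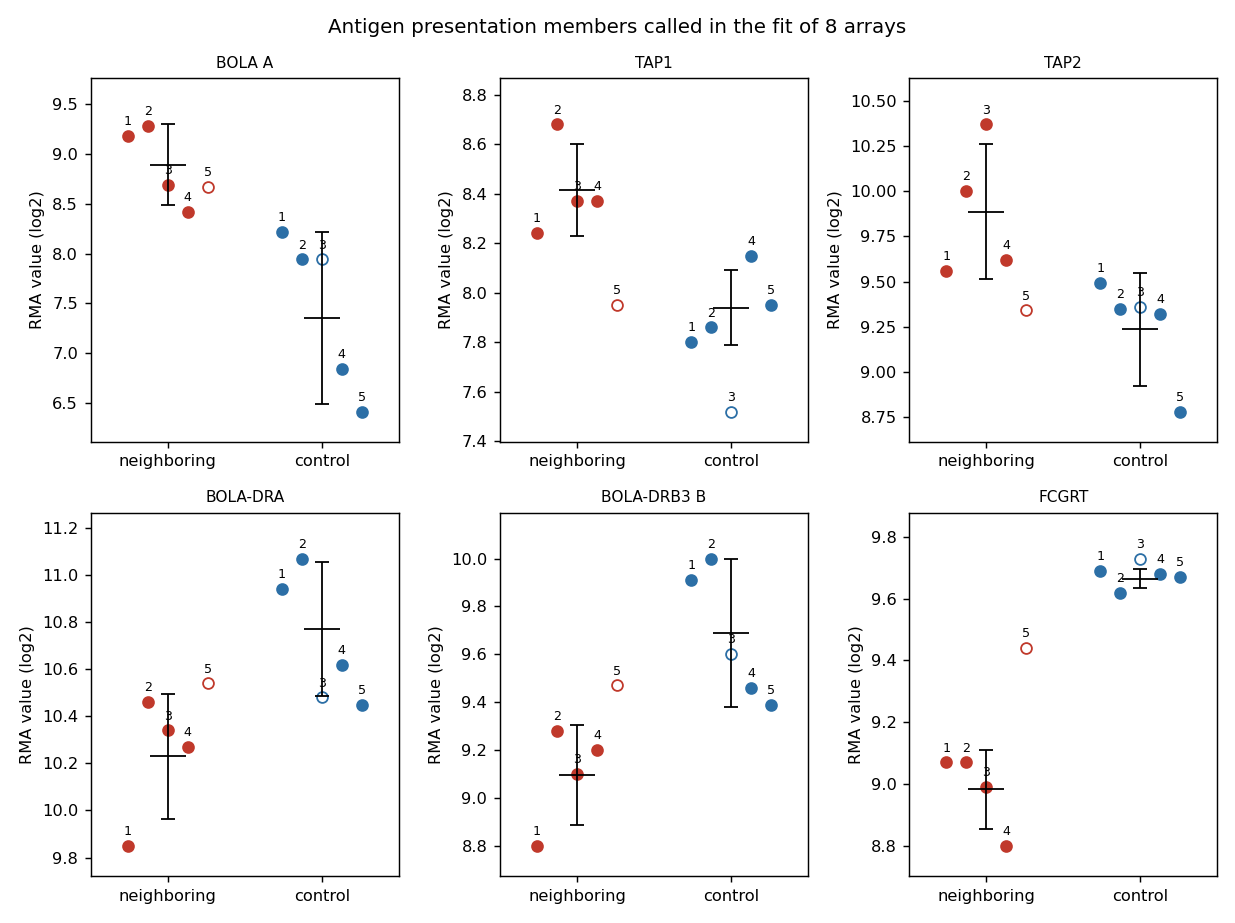
RMA values (log2) of the 6 called members on each array, numbered by replicate; hollow points are neighboring 5 and control 3, outside the fit, and bars give mean and SD of the other 4. FCGRT and BOLA A keep all neighboring arrays on one side of all controls, while neighboring 5 lies among the controls in TAP1 and TAP2.

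The immunoproteasome did not pass. Its catalytic subunits are PSMB8, PSMB9 and PSMB10, and PSME1 and PSME2 form the activator that opens the proteasome. Changes were 0.44 ± 0.22 for PSMB10, 0.32 ± 0.23 for PSMB8, 0.12 ± 0.22 for PSMB9, 0.13 ± 0.16 for PSME1 and 0.11 ± 0.15 for PSME2. All 5 changes were above zero and none passed (adjusted p from 0.163 to 0.706). With all 10 arrays they ran from 0.27 to 0.51, and again none passed (adjusted p from 0.098 to 0.375).

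This result varied with the arrays in the fit and their weights. PSMB8 read 8.94, 10.04, 10.01, 9.97 and 9.77 in neighboring 1 to 5, and 9.33, 9.44, 8.83, 9.64 and 9.26 in control 1 to 5. PSMB9 read 6.84, 8.01, 7.88, 7.78 and 7.58, and 7.63, 7.51, 6.20, 7.47 and 7.44, in the same order. In all 5 probe sets neighboring 1 was the lowest neighboring array and control 3 the lowest control. This order was not particular to them. Neighboring 1 was also the lowest neighboring array in every constitutive proteasome gene measured except PSME4 and PSMF1. In PSMB6, for example, it read 9.80 (others 10.34 to 10.46), and control 3 read 9.44 (others 10.44 to 10.62). Changes of those genes without neighboring 1 are not given here. Leaving out neighboring 1, the lowest neighboring array in all 5 immunoproteasome and activator probe sets, had to raise each of their changes. The calls of that fit are therefore a description and no separate support. Without neighboring 1, 4 of the 5 immunoproteasome and activator probe sets were higher. They were PSMB8 (0.59 ± 0.11, adjusted p = 0.00487), PSMB10 (0.67 ± 0.16, 0.0142), PSMB9 (0.38 ± 0.09, 0.018) and PSME1 (0.31 ± 0.09, 0.0365), all 4 by limma. With them the class I side had 7 of 16 higher and 0 lower, and 9 of all 35 members were called. In that fit 29.5% of all probe sets passed in either direction, and the share higher is not given here. Of the fits without a single array, it gave the most member calls. Neighboring 5 lay within the range of the other high neighboring arrays or just below it in these genes. Array weights estimated over all probe sets were lowest in neighboring 5 (0.382), neighboring 1 (0.481) and control 3 (0.557). With all 10 arrays kept and so weighted, PSMB10 (0.59 ± 0.17, adjusted p = 0.0218) and PSMB8 (0.52 ± 0.17, 0.0338) were higher by limma. PSMB9, PSME1 and PSME2 did not pass in that fit. The part of these arrays in the result was not tested beyond these fits.

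**Figure D3:**
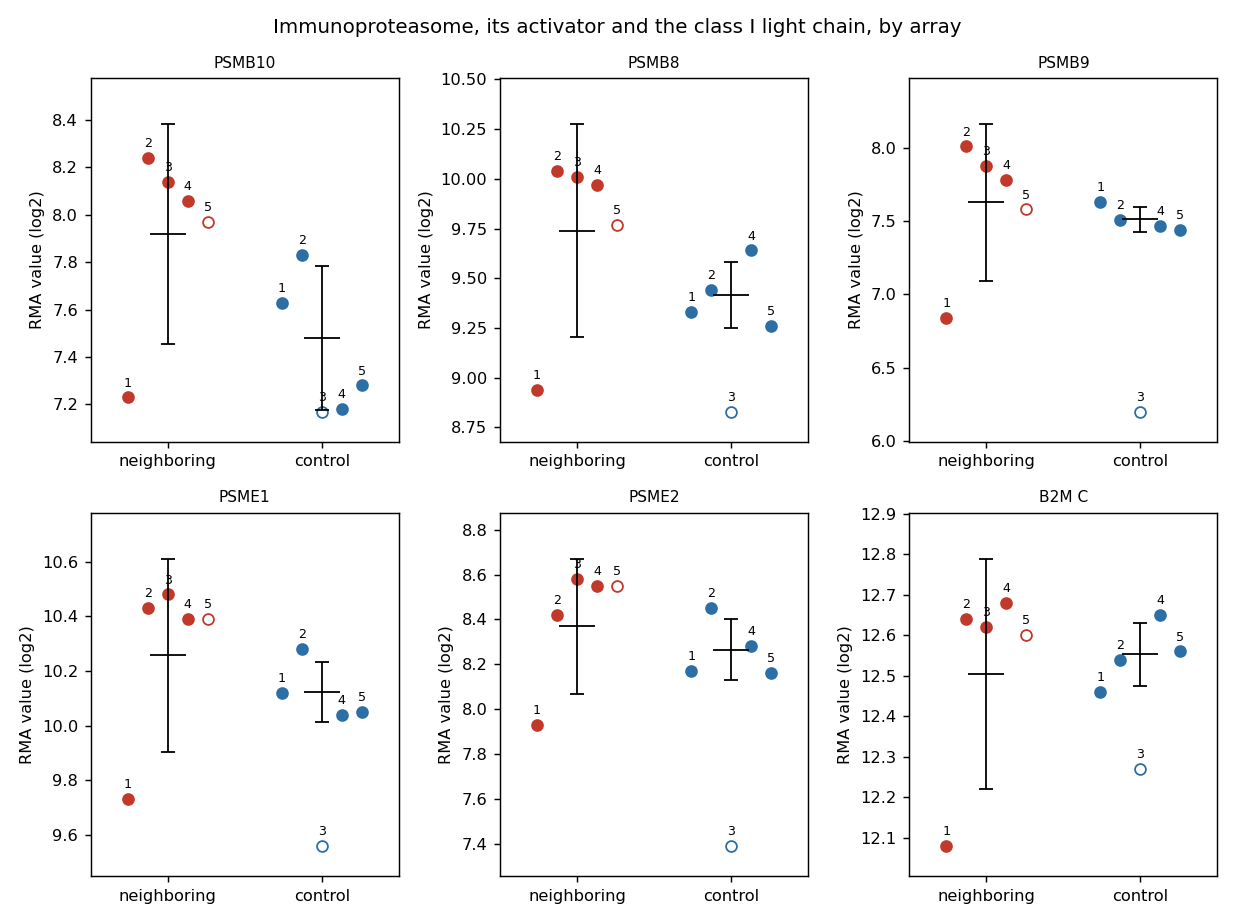
RMA values (log2) of the immunoproteasome subunits, the activator subunits and a B2M probe set on each array, numbered by replicate; hollow points lie outside the fit and bars give mean and SD of 4 arrays. Neighboring 1 is the lowest neighboring array and control 3 the lowest control in each of the 6 panels.

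TAP2, PSMB8, TAP1 and PSMB9 lie close together in the bovine MHC. In the RefSeq table of ARS-UCD2.0, PSMB8, TAP1 and PSMB9 follow each other with 0 genes between them, and 2 genes separate TAP2 from PSMB8. Of this run both TAP genes passed on the 8 arrays and both proteasome genes did not. Whether the changes of neighbours differ was not tested. For peptide trimming in the endoplasmic reticulum, ERAP1 changed by -0.18 ± 0.27 (adjusted p = 0.632). ERAP2 lay below the filter at 4.97 to 6.00 in the neighboring group and 4.46 to 5.27 in controls. It changed by 0.71 ± 0.20 in a limma fit without the filter (adjusted p = 0.0278), while the exact two-sided permutation test over the 8 arrays gave p = 0.0571.

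On the class II side, transcripts of both BOLA-DR chains were lower, the beta chain in 1 of its 2 probe sets. BOLA-DRA, the alpha chain, which hardly varies between animals, read 9.85, 10.46, 10.34, 10.27 and 10.54 in neighboring 1 to 5, and 10.94, 11.07, 10.48, 10.62 and 10.45 in control 1 to 5. The groups overlapped by 1 array on each side of the fit, neighboring 2 and control 5. The change was -0.54 ± 0.17, or 1.46-fold lower (adjusted p = 0.0333), and -0.42 ± 0.16 on all 10 arrays (adjusted p = 0.0909). The call was lost on leaving out neighboring 1, 3 or 4, or control 1 or 2.

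BOLA-DRB3, the main beta chain in cattle, was lower in one probe set (BOLA-DRB3 B). It read 8.80, 9.28, 9.10, 9.20 and 9.47 in neighboring 1 to 5, and 9.91, 10.00, 9.60, 9.46 and 9.39 in control 1 to 5. The 4 neighboring arrays of the fit lay below every control. The change was -0.60 ± 0.16, or 1.52-fold lower (adjusted p = 0.0203), and -0.51 ± 0.15 on all 10 arrays (adjusted p = 0.0488). It was lost without control 1 or without control 2. The other probe set (BOLA-DRB3 A) changed by 0.62 ± 1.03, and in it control 2 read 4.0 where the other 4 controls read 9.09 to 9.79. In whole tissue, fewer cells that carry these transcripts and less RNA per cell cannot be told apart.

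The BOLA-DQ chains spread widely between cows and did not pass. Of 12 probe sets for 5 DQ genes, 8 lay above the filter and 0 passed (changes from -0.74 to 0.58, adjusted p from 0.257 to 0.947). BOLA-DQA2 A read 8.70, 9.32, 9.95, 10.00 and 9.54 in neighboring 1 to 5, and 10.53, 9.83, 10.31, 10.21 and 5.08 in control 1 to 5. BOLA-DQB1 D read 6.36, 9.15, 9.37, 9.78 and 9.44, and 10.65, 8.20, 10.39, 10.22 and 4.77, in the same order. Control 5 was the lowest array in both.

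Another probe set, BOLA-DQB1 E, below the filter, showed the reverse for control 5. It read 6.23, 7.37, 2.52, 2.58 and 7.89 in neighboring 1 to 5, and 2.26, 2.68, 2.41, 2.62 and 7.44 in control 1 to 5. The arrays fell into a low set near 2.5 and a high set above 6, with neighboring 1, 2 and 5 and control 5 in the high set. This split followed single cows and crossed both groups. Without control 5, 3 DQ probe sets were lower, namely BOLA-DQA1 B (-0.82 ± 0.22, adjusted p = 0.0297), BOLA-DQA2 B (-0.76 ± 0.23, 0.04) and BOLA-DQB1 C (-1.32 ± 0.39, 0.0392). Their adjusted p on all 10 arrays was 0.546, 0.838 and 0.298. With them the class II side had 5 of 17 lower by limma, and its median was -0.65. In that fit 22.6% of all probe sets passed in either direction, and the share lower is not given here.

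**Figure D4:**
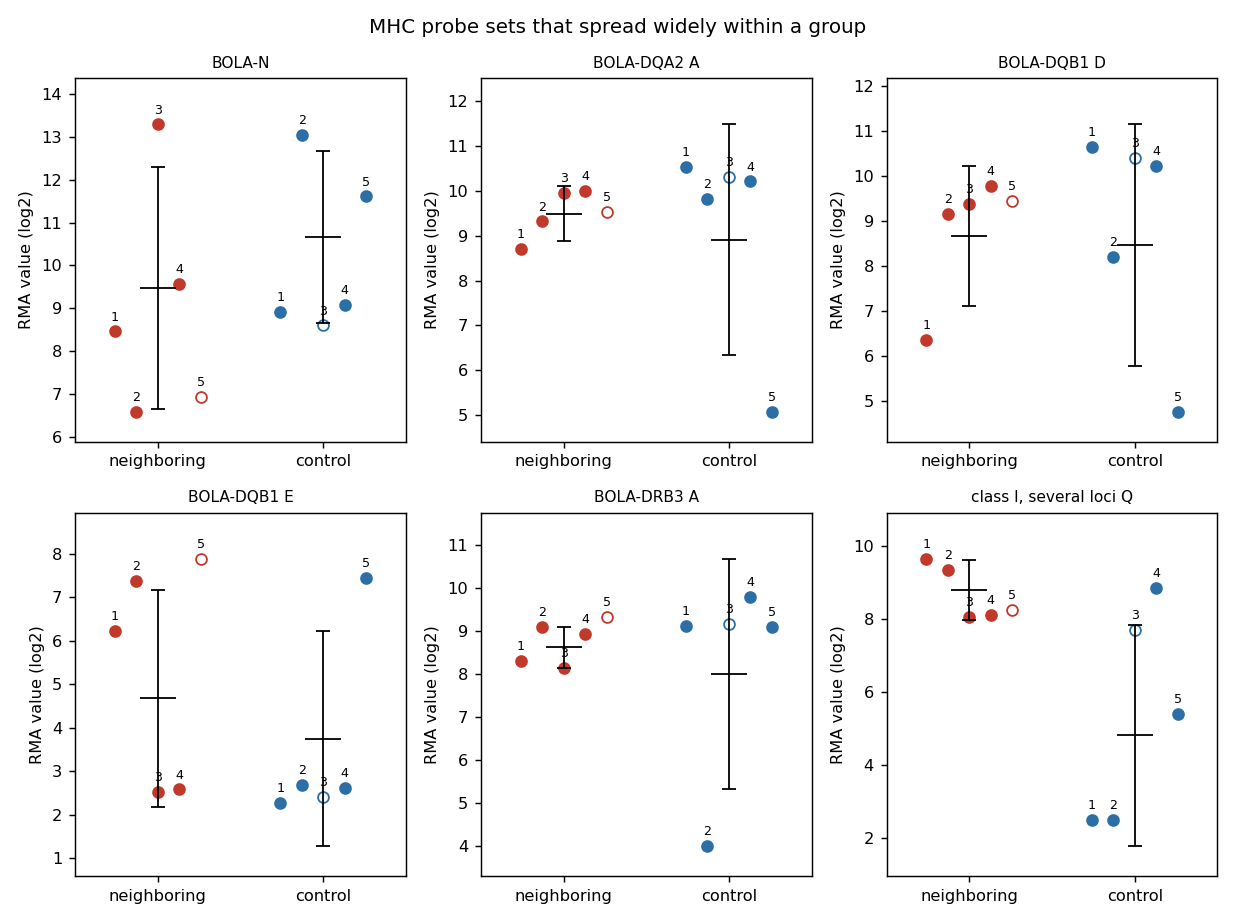
RMA values (log2) of 5 member probe sets and a class I probe set of several loci, by array and numbered by replicate; hollow points lie outside the fit and bars give mean and SD of 4 arrays. Single arrays, such as control 5 in BOLA-DQA2 A or control 2 in BOLA-DRB3 A, lie several log2 units from their group, and both groups hold high and low arrays of BOLA-N and BOLA-DQB1 E.

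BOLA-DQB itself lay below the filter, at 4.52 to 5.14 in the neighboring group and 4.95 to 5.30 in controls. Its change was -0.40 ± 0.12 in a limma fit without the filter (adjusted p = 0.0446), and the exact two-sided permutation test gave p = 0.0571. The smallest p that this test allows for 4 against 4 arrays is 0.0286, and none of the 9 members below the filter reached it. Of the called members BOLA-DRA also gave p = 0.0571 by the exact test. BOLA A, TAP1, TAP2, BOLA-DRB3 B and FCGRT gave 0.0286. BOLA-DYA and BOLA-DYB, class II genes particular to ruminants, read 2.60 to 4.45, below the filter cutoff.

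The peptide exchange genes did not pass. BOLA-DMA and BOLA-DMB, which together swap the placeholder peptide of class II for others, changed by -0.13 ± 0.20 and -0.26 ± 0.18. BOLA-DOA, a part of their inhibitor, changed by -0.28 ± 0.15 (adjusted p = 0.167). All 3 were lowest in neighboring 1 among the neighboring arrays and highest in control 1 among the controls. Legumain (LGMN), a lysosomal protease that cuts antigens, changed by 0.08 ± 0.17. Of the promoter factors that bind the conserved box of class II promoters, RFXANK changed by 0.06 ± 0.12. RFX5 changed by -0.29 ± 0.15 (adjusted p = 0.164) in its tested probe set. Its other probe set lay below the filter and changed by -0.13 ± 0.1 in a limma fit without the filter.

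The lowest adjusted p of all members was that of the neonatal Fc receptor. FCGRT is a class I-like molecule that binds IgG and albumin rather than peptides, and carries IgG across epithelia. It read 9.07, 9.07, 8.99, 8.80 and 9.44 in neighboring 1 to 5, and 9.69, 9.62, 9.73, 9.68 and 9.67 in control 1 to 5. All 5 neighboring arrays lay below all 5 controls, with neighboring 5 nearest to them. The means were 8.98 ± 0.13 and 9.67 ± 0.03 (SD, n = 4 each), a 1.61-fold difference (log2 change -0.69 ± 0.09 SE, adjusted p = 0.000876). On all 10 arrays the change was -0.61 ± 0.11 (adjusted p = 0.0196). The call held on leaving out each array of the fit in turn. With the hybridization controls as a covariate the change was -0.75 (adjusted p = 0.0654). MR1, which shows vitamin B metabolites to a class of innate-like T cells, changed by -0.25 ± 0.13 (adjusted p = 0.166) in its tested probe set.

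Of 50 measured genes that feed or drive these pathways 14 (28.0%) were called in the fit of 8 arrays, near the 29.7% of all probe sets. Of 6 interferon signalling genes measured, 1 was higher and 1 lower. STAT2, a signal carrier of type I interferon, was higher (0.51 ± 0.16, adjusted p = 0.039, and 0.071 on all 10 arrays). IRF8, a transcription factor of macrophages and dendritic cells, was lower (-0.44 ± 0.11, adjusted p = 0.0118, and 0.0297 on all 10 arrays). Of 6 general promoter factors of MHC genes 1 was higher, USF1 (0.53 ± 0.11, adjusted p = 0.00672, and 0.146 on all 10 arrays). None of the 3 measured co-stimulation and adhesion genes, CD40, ICAM1 and CD58, passed (changes 0.09, 0.11 and 0.08).

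Of 10 genes of the folding machinery that serves class I in the endoplasmic reticulum 4 were lower, 1 higher and 5 did not pass. Their median was -0.40, and 12.0% of all probe sets were lower and 17.7% higher in that fit. Calreticulin (CALR), a chaperone of the peptide-loading complex, was lower (-0.65 ± 0.16, adjusted p = 0.0153), as were the translocon subunit SEC61B (-0.53 ± 0.15, 0.0249) and the folding enzyme P4HB (-0.44 ± 0.13, 0.0318). PDIA3, which works with calreticulin in loading, was lower as well (-0.42 ± 0.11, 0.0151). SEL1L, of the pathway that clears misfolded proteins, was higher (0.89 ± 0.11, 0.000451). On all 10 arrays SEL1L alone of these passed (adjusted p = 0.0195). These genes serve all secreted proteins, milk proteins included.

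Of 16 constitutive proteasome genes 2 were higher, 0 lower and 14 did not pass. PSMF1, an inhibitor of the proteasome, was higher (0.60 ± 0.09, adjusted p = 0.00165), and so was PSMA6 (0.40 ± 0.12, 0.0348), of which PSMF1 passed on all 10 arrays (0.0198). Of 9 genes of class II peptide supply and turnover 2 were higher and 2 lower. The lysosomal proteases CTSH (0.64 ± 0.17, 0.0195) and CTSZ (0.46 ± 0.14, 0.0338) were higher. Another, CTSD (-0.37 ± 0.09, 0.0131), and the protease inhibitor CST3 (-0.63 ± 0.19, 0.0286) were lower. CTSS, the protease that frees class II from the invariant chain, changed by 0.02 ± 0.17. On all 10 arrays CTSD alone of these 4 passed (0.0386).

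Of 36 cell type markers measured 10 (27.8%) were called, again near the 29.7% of all probe sets, 2 higher and 8 lower. Of 8 T and NK cell genes measured 3 were lower and 0 higher, CD3E (-0.75 ± 0.16, adjusted p = 0.00751), CD2 (-0.52 ± 0.12, 0.00956) and CD3D (-0.50 ± 0.14, 0.0206). The mean level over these 8 genes was 5.98 to 6.57 in the neighboring arrays of the fit and 6.57 to 6.85 in its controls. With all 10 arrays 0 of the 8 passed, and neighboring 5 stood at 6.90. Of 6 macrophage and monocyte genes 2 were lower, MSR1 (-1.90 ± 0.30, 0.00161) and CD14 (-1.08 ± 0.27, 0.0142), which also passed on all 10 arrays (0.0227 and 0.0324). CD68, CSF1R, C1QA and C1QB did not pass (changes 0.10, -0.07, 0.14 and 0.34), and the median of the 6 was 0.01. The mean level over these 6 was 8.02 to 8.61 in the neighboring group and 8.58 to 8.72 in the controls of the fit. With control 3 included the control range was 8.24 to 8.72. The 4 general leukocyte genes did not pass (mean level 7.21 to 7.48 and 7.02 to 7.56 on the arrays of the fit). For B and plasma cells 2 of 6 markers were measured, and neither passed. No marker of dendritic cells or neutrophils was measured above the filter. The part of these cells in the lower BOLA-DR, IRF8 and FCGRT values was not tested.

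Of 7 luminal epithelium genes 2 were higher, KRT19 (1.10 ± 0.23, adjusted p = 0.00602) and EPCAM (0.72 ± 0.09, 0.00058), of which EPCAM passed on all 10 arrays (0.0223). The other 5 did not pass, and the median of the 7 was 0.09. Of 5 fibroblast genes 3 were lower, LUM (-1.72 ± 0.17, 0.000212), COL3A1 (-0.95 ± 0.28, 0.0298) and COL1A1 (-0.70 ± 0.18, 0.0168), and 4 were lower on all 10 arrays. The mean level of the 5 was 9.22 to 10.09 in the neighboring group and 10.43 to 10.85 in controls, without overlap. It was 10.43 to 10.96 with control 3 included. The luminal mean was 12.30 to 12.57 and 11.97 to 12.14 on the 8 arrays. Over all 10 arrays it was 12.16 to 12.57 and 11.97 to 12.25, so that the groups overlapped. The part of tissue composition in the member changes was not tested.

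**Figure D5:**
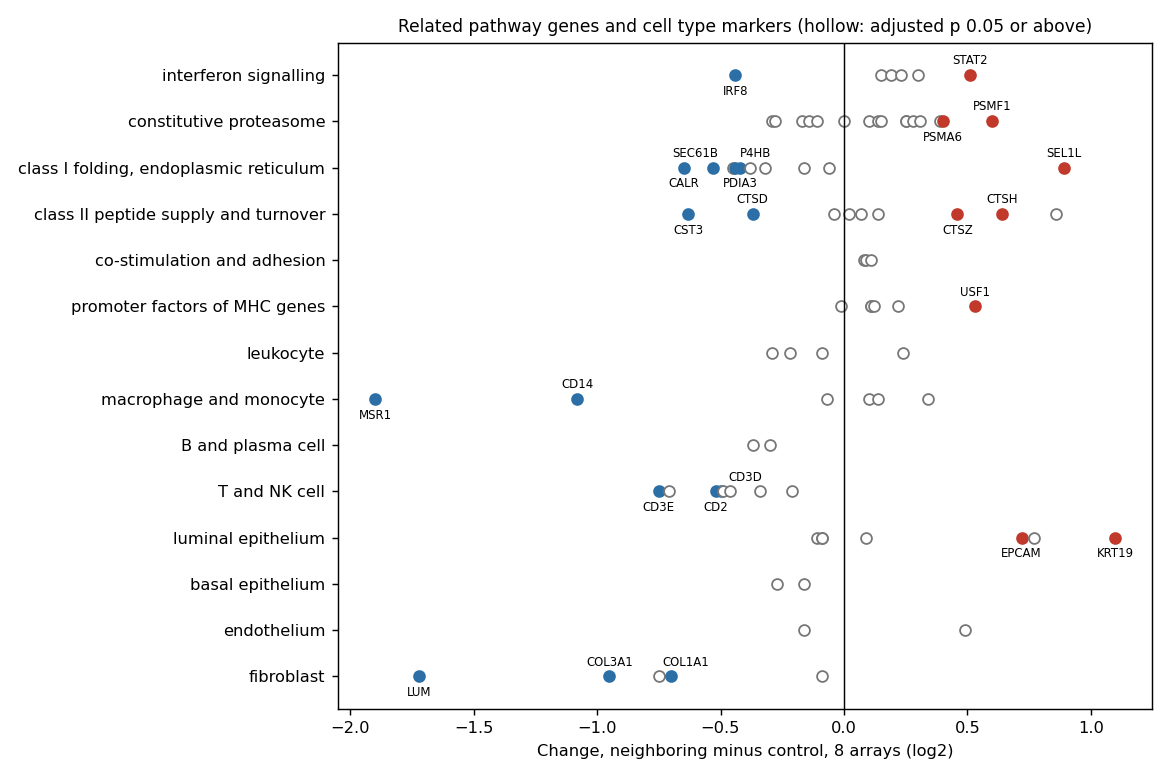
Change, neighboring minus control on the log2 scale in the fit of 8 arrays, of each gene in the related pathway and marker lists, 1 point per gene at its brightest probe set; filled points passed at an adjusted p under 0.05. In all 24 of 86 (27.9%) are filled, 9 higher and 15 lower, where 29.7% of all probe sets passed, 17.7% higher and 12.0% lower. MSR1, LUM and CD14 lie furthest below zero and KRT19 and SEL1L furthest above among the filled points.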

How the data were processed

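Total RNA of 10 mammary tissue samples was hybridized to the Affymetrix Bovine Genome Array. The deposited table holds log2 values that the authors made by RMA, per the labels and methods (affy and affyPLM; versions not given in the sources used here), on arrays whose medians were 6.25 to 6.27. Array pairs correlated at 0.971 to 0.992 and 0 pairs were identical. Control arrays were a repeat hybridization of the control samples. The study's methods state pools of 2 glands for controls, while its setup list gives 1 gland for control 3 and control 5. Groups came from sample titles. The source label of all 10 samples reads neighboring, against titles and descriptions.

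Probe sets were named by the platform annotation. Of 24016 probe sets 13292 had 1 symbol, 86 several and 10638 none, and of the 13292 the symbol of 13263 matched RefSeq. Members and lists were chosen with earlier results of these data known. The named genes were every called member, a list of 21 set members where measured, and up to 4 called genes per further list. Besides these, some further members and list genes are named, PDIA3 among them as the next called gene of its list. The 40% of probe sets with the lowest means (to 5.71) were left out, which kept 14409. limma 3.58.1 (R 4.3.3) was fitted with eBayes on 8 arrays, and p-values were adjusted by Benjamini-Hochberg over all probe sets kept. A call is an adjusted p under 0.05. Of several probe sets, those of members are all counted and lists use the brightest. Replicate numbers came from titles. Deviations of same-numbered arrays correlated at -0.0259, -0.0261 and -0.0494, so the numbers pair nothing. The fit was checked on simulated arrays.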

Additional observations from a re-analysis of the deposited data

Results flagged for a closer look

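In a group of 5 arrays, a single array was marked where its gap to the next exceeded 0.71 of the group's range. Over the 88 groups of member probe sets 19 arrays were marked, 16 of them above the filter, where chance marks about 1 group in 20. Probe sets share arrays, so the marks are not independent.

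Neighboring 1 was the lowest neighboring array in 9 of the marks. Among them were 2 B2M probe sets (12.81 where the others read 13.21 to 13.35, and 12.08 where they read 12.60 to 12.68), PSMB8 (8.94, others 9.77 to 10.04), PSMB10 (7.23, others 7.97 to 8.24), PSME1 (9.73, others 10.39 to 10.48), PSME2 (7.93, others 8.42 to 8.58), BOLA-DMA (6.84, others 7.50 to 7.76) and BOLA-DOA (5.22, others 5.68 to 5.84). The ninth was BOLA-DQB1 D, at 6.36 where the others read 9.15 to 9.78.

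Control 3 was lowest in PSMB9 (6.20, others 7.44 to 7.63) and PSME2 (7.39, others 8.16 to 8.45), and highest in TAPBP (10.18, others 9.79 to 9.87).

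Control 5 was lowest in TAP2 (8.78, others 9.32 to 9.49) and in 2 BOLA-DQA2 probe sets (5.08, others 9.83 to 10.53, and 7.01, others 9.72 to 10.02). It was highest in BOLA-DQB1 E (7.44, others 2.26 to 2.68).

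Control 2 was lowest in BOLA-DRB3 A (4.0, others 9.09 to 9.79) and in BOLA-DQB (4.95, others 5.20 to 5.30), and control 4 in MR1 B (4.85, others 5.25 to 5.39).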

How the results depend on the processing

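The 6 called members kept their direction under all 126 alternatives (21 each). The filters, the variance models and the study's threshold cannot alter a change, so in those settings direction was fixed in advance. Of the 126, the call held in 91 and was lost in 35. FCGRT and BOLA A lost it in 2 of 21 each (the hybridization control covariate and the study's threshold), TAP1 in 5, BOLA-DRB3 B in 6, and TAP2 and BOLA-DRA in 10 each. With the covariate the changes were 1.85 for BOLA A, 0.37 for TAP1, 0.42 for TAP2, -0.36 for BOLA-DRA, -0.31 for BOLA-DRB3 B and -0.75 for FCGRT. Members called were 3 on all 10 arrays, 2 with neighboring 5 put back, 0 with the covariate and 0 under the study's threshold. Leaving out single arrays gave 3 (without control 2) to 9 (without neighboring 1). Class I side calls were 1 on all 10 arrays, 1 with neighboring 5, 5 with array weights, 0 with the covariate, 0 under the study's threshold, and 2 to 7 on leaving out single arrays (7 without neighboring 1). Class II side calls were 1 on all 10 arrays, 0 with neighboring 5, 0 with the covariate, 0 under the study's threshold, and 0 (without control 1 or control 2) to 5 (without control 5). With the replicate block, which uses the 3 numbers present in both groups of the fit, 4 members were called, 1 of them on the class I side, and the class II side median was -0.68. Without single arrays that median ran from -0.65 (without control 5) to -0.14. The class I side median ran from 0.03 (without neighboring 3) to 0.20 (without neighboring 1), and was 0.21 on all 10 arrays, 0.04 with cyclic loess and 0.01 with the block. The difference of medians between the sides stayed positive in all fits, from 0.24 to 0.73. Calls in the related lists fell from 24 to 11 on all 10 arrays. Counts of the remaining settings (control 3 put back, both filters, both scalings, both variance models, brightest probe set) were within 1.5 times those reported. The causes were not tested.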
